A study of Mus musculus with 6 samples.

Results

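Interferon-stimulated genes and the transcription factors that govern them were examined as a set of 41 genes chosen by name in mouse hearts 2 weeks after aortic banding. Of these, 38 had a probe set on the array, 61 probe sets in all among the 38195 tested, and each gene was represented by its probe set with the highest mean signal. The arrays measured 18029 genes in total. Isg15, Oas1a and Ifi44 were not matched to a probe set by the annotation used here. Hearts of 3 Tmbim1 knockout mice were compared with hearts of 3 mice labelled Flox and wild type. All 6 mice were of C57BL/6 background, were 8 weeks old at the age the study gives, and had undergone banding of the aorta (spelled binding in the labels), which makes the left ventricle pump against a higher pressure. The labels describe 3 separate biological samples per genotype; 400 ng of RNA from each heart went into the labelling. How the knockout was made, which cells carry it and whether the mice were littermates is not given in the labels, and hearts without surgery were not analysed here.

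Interferons are secreted when cells sense foreign or misplaced nucleic acid. Type I interferons act through IFNAR1 and IFNAR2 and the kinases JAK1 and TYK2, and lead to a complex with STAT2 and IRF9 that binds the interferon-stimulated response element (ISRE) in the promoters of target genes. Interferon gamma acts in part through the gamma-activated site (GAS) in promoters, and through IRF1. In the heart, cardiomyocytes, fibroblasts, endothelial cells and macrophages can all respond, and macrophages are a known source of type I interferon after cardiac injury.

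The promoters of a few of these genes are printed because the results turn on genes that varied together between hearts. The RefSeq promoter table (GRCm38.p6) held 33 of the 41 genes. The 250 bases before each start were searched on both strands for the ISRE core, GAAA followed after any 2 bases by another GAAA, and for the GAS core TTCNNNGAA, which reads the same on either strand. Overlapping matches were each counted, and 1 ISRE match overlapped a GAS match. An ISRE core was found in 12 of the 33 genes (36.4%), against 3.46% of 27025 genes in the table, and a GAS core in 9 of the 33 (27.3%), against 8.13%. Capitals mark the matches, and each sequence runs 5′ to 3′ towards the start of the gene. Ifit1 and Ifit3 are shown as the members with the widest range between hearts, Gbp2, Gbp3 and Rsad2 as other members with an ISRE core, and Irf1 as the transcription factor gene whose groups did not overlap.
Ifit1, chr19:34640639-34640888, plus strand: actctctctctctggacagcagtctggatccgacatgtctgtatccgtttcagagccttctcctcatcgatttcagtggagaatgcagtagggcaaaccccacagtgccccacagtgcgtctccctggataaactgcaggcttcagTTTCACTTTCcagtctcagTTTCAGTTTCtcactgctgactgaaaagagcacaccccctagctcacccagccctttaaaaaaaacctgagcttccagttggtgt
Ifit3, chr19:34583279-34583528, plus strand: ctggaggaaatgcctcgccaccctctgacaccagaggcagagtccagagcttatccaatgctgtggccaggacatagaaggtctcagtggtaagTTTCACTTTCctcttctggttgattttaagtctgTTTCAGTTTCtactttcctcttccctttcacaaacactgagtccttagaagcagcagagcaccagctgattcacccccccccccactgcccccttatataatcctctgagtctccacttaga
Gbp2, chr3:142620413-142620662, plus strand: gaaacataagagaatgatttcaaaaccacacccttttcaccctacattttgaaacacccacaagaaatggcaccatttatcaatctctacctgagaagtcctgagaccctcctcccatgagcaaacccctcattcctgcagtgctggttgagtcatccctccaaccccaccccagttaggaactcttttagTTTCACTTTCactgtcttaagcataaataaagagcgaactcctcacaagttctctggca
Gbp3, chr3:142559794-142560043, plus strand: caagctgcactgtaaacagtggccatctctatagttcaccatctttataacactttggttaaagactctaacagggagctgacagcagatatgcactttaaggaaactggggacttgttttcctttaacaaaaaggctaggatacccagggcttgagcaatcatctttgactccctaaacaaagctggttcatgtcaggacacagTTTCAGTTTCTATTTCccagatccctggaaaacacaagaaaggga
Rsad2, chr12:26456453-26456702, minus strand: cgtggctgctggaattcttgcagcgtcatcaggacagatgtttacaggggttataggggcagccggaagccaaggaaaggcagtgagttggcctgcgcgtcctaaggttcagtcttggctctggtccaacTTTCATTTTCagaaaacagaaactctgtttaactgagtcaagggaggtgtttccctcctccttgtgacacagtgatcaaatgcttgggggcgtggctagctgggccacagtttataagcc
Irf1, chr11:53769764-53770013, plus strand: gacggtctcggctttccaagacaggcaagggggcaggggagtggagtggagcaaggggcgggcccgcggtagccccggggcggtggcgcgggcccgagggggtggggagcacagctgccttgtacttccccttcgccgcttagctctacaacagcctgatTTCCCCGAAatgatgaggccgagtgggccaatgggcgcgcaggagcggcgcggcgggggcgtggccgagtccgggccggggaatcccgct
In Ifit1 and Ifit3 there were 2 ISRE cores each, the nearer beginning 85 and 122 bases before the start. Gbp3 held 2 overlapping cores, the nearer at 39 bases, Gbp2 held 1 at 59 bases and Rsad2 held 1 at 120 bases. Irf1 held no ISRE core in this window and 1 GAS core, at 90 bases. Gbp3 and Irf1 each have 2 starts in the table, and the window printed is the one that held a match. A match is a string of letters and not a measured binding site.

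No interferon gene passed the threshold between knockout and wild type hearts. By limma, 0 of the 38 genes passed an adjusted p of 0.05, where 0.549% of all genes did (0.422% of all probe sets). An unadjusted p under 0.05 was seen in 2 of the 38, Ifi27l2a (higher) and Irf1 (lower), where 11.5% of all genes had one. These were also the 2 genes whose knockout and wild type arrays did not overlap, against 16.7% of all genes. The log2 differences (knockout minus wild type) had a median of -0.06 and ran from -0.44 for Gbp3 to 0.93 for Ifi27l2a, with 24 of 38 below 0 (50.6% of all genes). The median over all genes was 0.00. With 3 hearts per group the number of arrays limits the precision, and a p that misses the threshold does not show that the groups were alike.

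**Figure D1:**
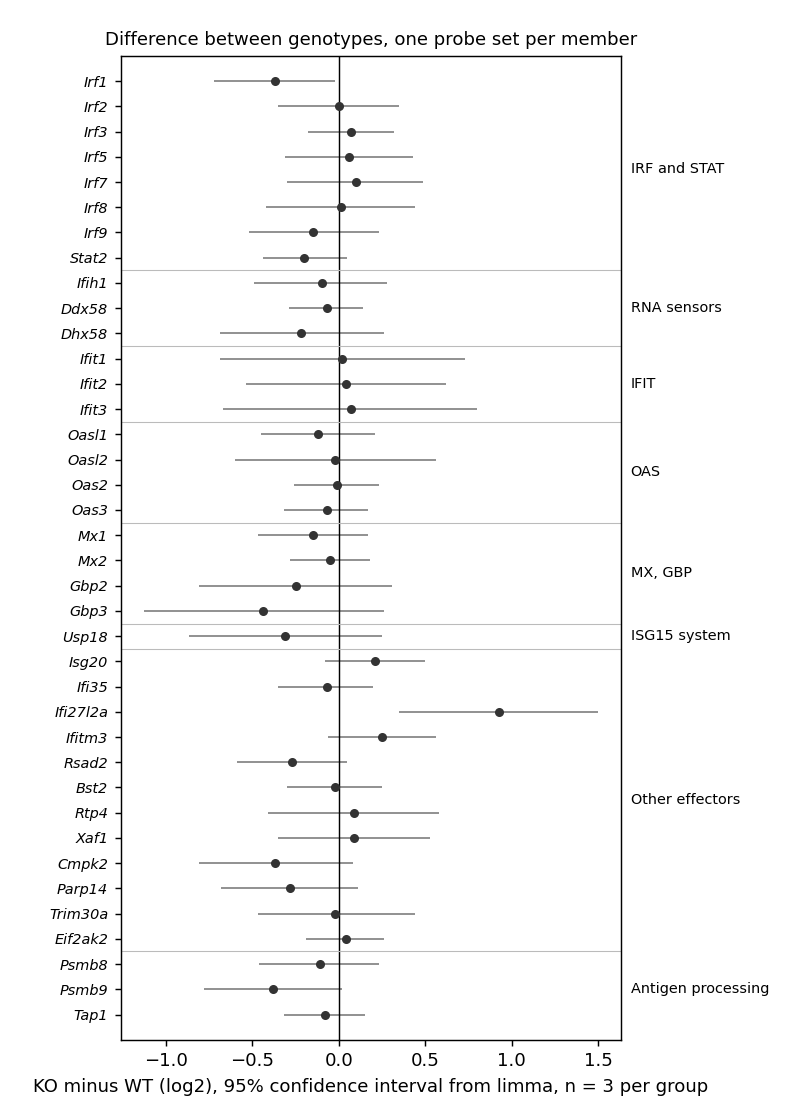
Knockout minus wild type difference (log2, horizontal axis) of each of the 38 measured genes, grouped by role, with the 95% confidence interval of the limma fit and n = 3 hearts per group. The intervals of Ifi27l2a (0.35 to 1.50) and Irf1 (-0.72 to -0.02) lie to one side of 0 before adjustment, and 0 genes passed after it.

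The check of the genotype labels held for all 6 arrays. Tmbim1 signal was 8.58, 8.38 and 8.33 in wild type replicates 1 to 3 and 7.53, 7.49 and 7.56 in knockout replicates 1 to 3, a fall by 0.91 (SE 0.10, limma adjusted p = 0.00579). With knockout replicate 2 left out the adjusted p was 0.0512. Whether this probe set lies in the deleted part of the gene was not analysed here. All 11 cardiomyocyte markers were bright, with means from 10.13 to 13.66, and the arrays correlated at 0.989 to 0.996. The groups did not overlap in 8 of these 11 markers, 7 of them lower in knockout hearts (16.7% of all genes did not overlap). Their median difference was -0.15, and 1 rose past the threshold (0.549% of all genes passed). Knockout replicate 1 stood apart in atrial markers, whose summed log2 signal over 10 genes was 98.2 there and at most 58.3 in wild type hearts.

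The main pattern in the interferon genes was a difference among the wild type hearts. Wild type replicate 2 had the highest signal of the 6 arrays in 28 of 38 genes, where this was so for 16.7% of all genes. Wild type replicate 3 had the lowest in 21 of 38, against 21.2% of all genes, and in 17 of 38 the order ran from replicate 2 at the top to replicate 3 at the bottom, against 3.41%. Relative to each gene's mean over the arrays, the median of the 38 genes was -0.04, 0.41 and -0.20 in wild type replicates 1 to 3 and -0.08, -0.07 and 0.02 in knockout replicates 1 to 3. The knockout hearts thus lay close together and inside the range of the wild type hearts. The range of the wild type arrays exceeded that of the knockout arrays in 35 of 38 genes (59.1% of all genes), with a median range of 0.67 against 0.23, where the medians over all genes were 0.25 and 0.21. Against the mean of the knockout hearts the median difference of the set was -0.02 from wild type replicate 1, -0.46 from replicate 2 and 0.15 from replicate 3. Single wild type hearts therefore set its sign: the set's median difference was 0.05 without replicate 2 and -0.21 without replicate 3.

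**Figure D2:**
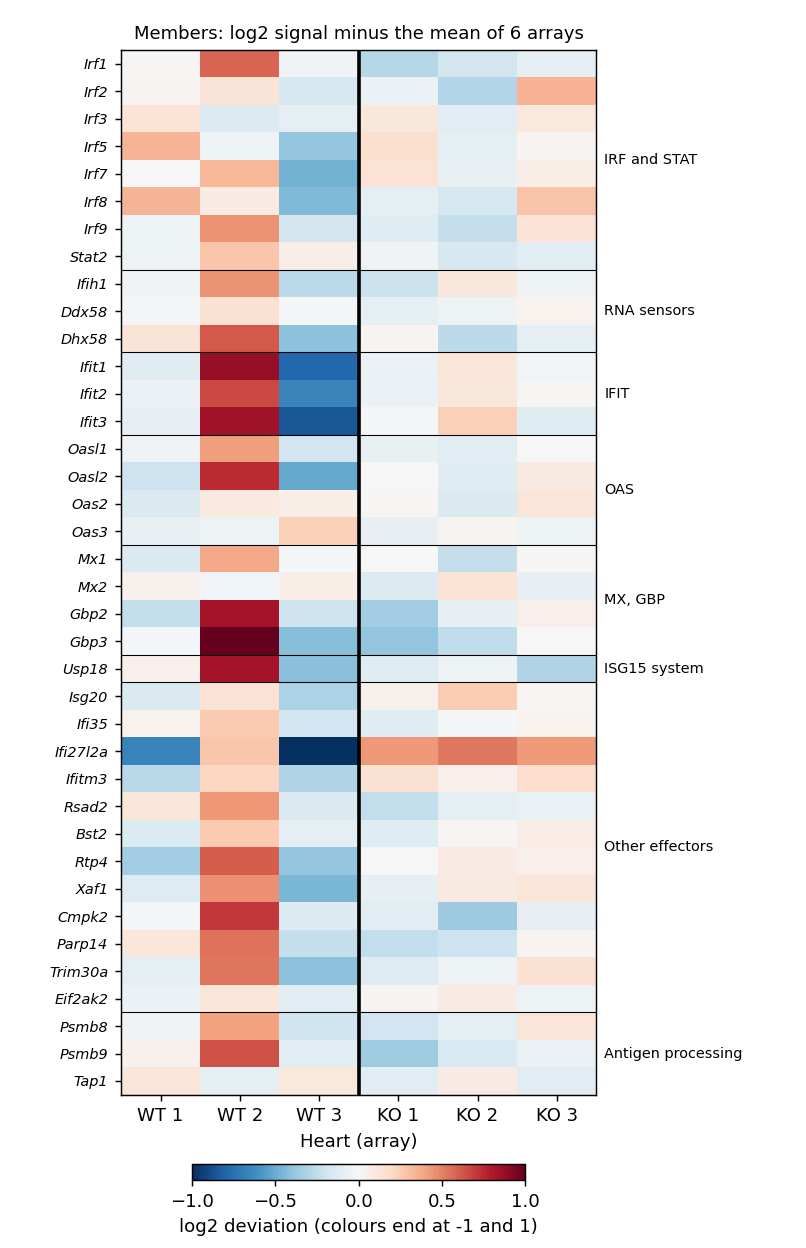
Log2 signal of each of the 38 genes in each heart (columns, 3 wild type then 3 knockout), as the deviation from that gene's mean over the 6 arrays, with rows grouped by role. Wild type replicate 2 is the highest array in 28 rows and wild type replicate 3 the lowest in 21. The wild type columns span a wider range of values than the knockout columns in 35 rows.

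**Figure D3:**
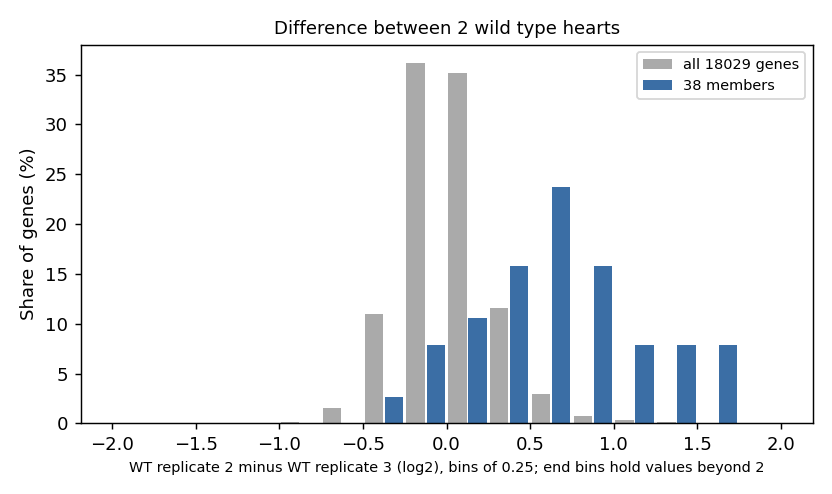
Share of genes (percent, vertical axis) by the difference between wild type replicate 2 and wild type replicate 3 (log2, bins of 0.25), for all 18029 genes and for the 38 interferon genes. The difference exceeds 0.5 in 24 of 38 interferon genes and in 4.27% of all genes. The pair of hearts was chosen from the values of the 38 genes, which widens the contrast with all genes.

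The difference between those hearts was 0.61 as a median over the 38 genes and 0.00 over all genes, and it exceeded 0.5 in 24 of 38 (4.27% of all genes). This pair was picked because its arrays were most often the extremes for the 38 genes, which widens the contrast with all genes. Other interferon-induced genes, a list of 48 with 38 measured, also had replicate 2 highest in 26 of 38, with a median deviation of 0.30 there, and replicate 3 lowest in 9 of 38. Macrophage and monocyte markers were lowest in wild type replicate 3 in 12 of 15 cases, and fibroblast markers in 8 of 10, but wild type replicate 2 was the highest array in 3 of 15 and 0 of 10. The summed log2 signal of the 15 macrophage markers ran from 100.8 to 106.9 in wild type hearts and from 106.1 to 109.2 in knockout hearts. The part of these cells in the interferon gene values was not tested. In a bulk sample, fewer cells of a type and less RNA per cell cannot be told apart.

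Among the transcription factors, 8 members, Irf1 alone had groups that did not overlap, where this was so for 16.7% of all genes. IRF1 is induced by interferon gamma and switches on antigen presentation genes. Irf1 signal was 7.62, 8.19 and 7.58 in wild type replicates 1 to 3 and 7.33, 7.43 and 7.52 in knockout replicates 1 to 3. Every knockout value lay below every wild type value, although the gap between the closest arrays was small. The difference was -0.37 (SE 0.16, 95% interval -0.72 to -0.02, adjusted p = 0.447), and it was -0.17 without wild type replicate 2. Irf7, the interferon-inducible amplifier of type I interferon production, was at 6.35, 6.68 and 5.88 in wild type and 6.50, 6.28 and 6.42 in knockout hearts. Its knockout values lay within the wild type range, with a difference of 0.10 (95% interval -0.30 to 0.49). Stat2, a partner of IRF9 in that complex, was at 4.26, 4.59 and 4.38 in wild type and 4.28, 4.15 and 4.21 in knockout hearts, with groups that overlapped. Its difference of -0.20 was -0.11 without wild type replicate 2. Irf9, its DNA-binding partner, was at 5.99, 6.49 and 5.86 in wild type and 5.92, 5.80 and 6.18 in knockout hearts (difference -0.15, and 0.04 without that array).

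Irf3, the constitutive factor activated by phosphorylation after nucleic acid sensing, did not follow wild type replicate 2. It was at 6.90, 6.63 and 6.67 in wild type and 6.88, 6.65 and 6.87 in knockout hearts, a difference of 0.07 (95% interval -0.18 to 0.32). Of the 3 other probe sets of Irf3, 1 had an unadjusted p under 0.05 in the opposite direction (-0.28, adjusted p = 0.346), so its probe sets disagree. Irf8, a factor of macrophages and dendritic cells, and Irf5, a factor of myeloid inflammation, were highest in wild type replicate 1 and lowest in wild type replicate 3, with differences of 0.01 and 0.06. Irf2, which can oppose IRF1, had a difference of 0.00 and its highest and lowest arrays among the knockout hearts.

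For the 3 cytosolic RNA sensors the groups overlapped. Ifih1 encodes MDA5, which binds long double-stranded RNA, and read 6.30, 6.79 and 6.08 in wild type and 6.12, 6.45 and 6.29 in knockout hearts. Ddx58 encodes RIG-I, which recognises RNA ends, and read 6.54, 6.71 and 6.54 against 6.46, 6.51 and 6.59. Dhx58 encodes LGP2, a regulator of both, and read 3.76, 4.24 and 3.22 against 3.66, 3.37 and 3.53. Their differences were -0.10, -0.07 and -0.22, with 0 of 3 past the threshold, and without wild type replicate 2 they were 0.10, -0.02 and 0.03. The other probe sets of Ddx58 were at -0.39 (limma unadjusted p = 0.0585) and -0.07, and those of Dhx58 at -0.06 and 0.02. For Dhx58 the 95% interval was -0.69 to 0.26. Its mean of 3.63 lay just above the 40th percentile of all probe sets (3.61), so its value is uncertain.

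The IFIT genes, whose proteins bind viral RNA and block its translation, were among the members that varied most between wild type hearts, and their group means lay within 0.07 of each other. Ifit1 was at 6.67, 7.66 and 6.00 in wild type and 6.73, 6.91 and 6.76 in knockout hearts. Ifit2 was at 7.04, 7.76 and 6.43 in wild type and 7.04, 7.21 and 7.11 in knockout hearts. Ifit3 was at 7.38, 8.30 and 6.61 in wild type and 7.45, 7.70 and 7.34 in knockout hearts. For each of them the 3 knockout values lay inside the wild type range, which spanned 1.66, 1.33 and 1.69 against 0.18, 0.18 and 0.36 among knockout hearts. The difference was 0.02 for Ifit1 (95% interval -0.69 to 0.73), 0.04 for Ifit2 (-0.54 to 0.62) and 0.07 for Ifit3 (-0.67 to 0.80). Ifit3 has a near-identical neighbour, Ifit3b, which can share probes.

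**Figure D4:**
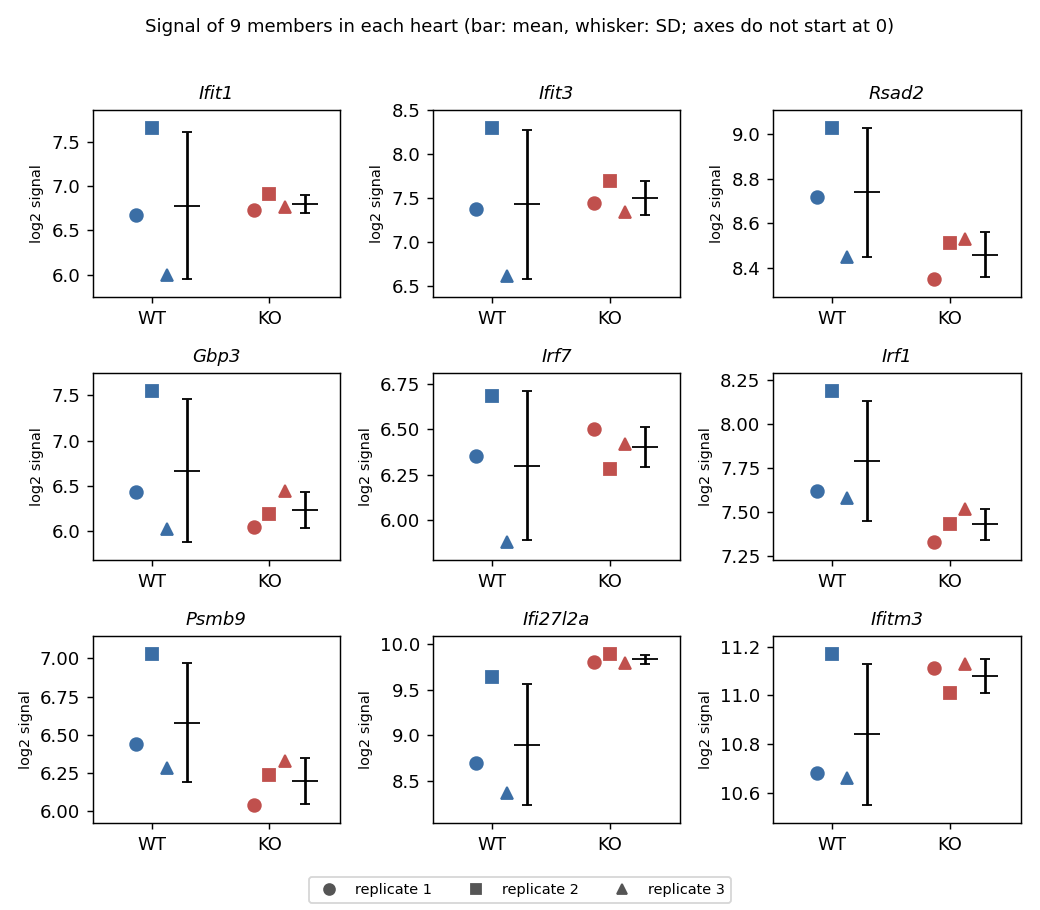
Log2 signal of 9 of the genes in each heart, with marker shape for the replicate number and the mean and SD of each group (n = 3) to the right of its points. Ifit1, Ifit3, Gbp3 and Irf7 show knockout values within or near the wild type range, Irf1 shows every knockout value below the wild type values, and Ifi27l2a shows every knockout value above them.

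The oligoadenylate synthetase genes make the activators of RNase L or related proteins. Oasl2 followed the IFIT genes, at 5.62, 6.58 and 5.32 in wild type and 5.83, 5.71 and 5.92 in knockout hearts. Its difference was -0.02 (95% interval -0.60 to 0.56). Oas2 varied little, at 6.47, 6.71 and 6.67 in wild type and 6.62, 6.47 and 6.73 in knockout hearts. Oasl1, a translational inhibitor of Irf7 mRNA, had a difference of -0.12. Oas3 had a mean of 2.83, below the 40th percentile of all probe sets (3.61), so its value of -0.07 is uncertain.

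The guanylate-binding proteins are interferon gamma-induced GTPases that attack vacuoles of intracellular microbes. Gbp2 was at 7.26, 8.34 and 7.30 in wild type and 7.16, 7.43 and 7.56 in knockout hearts, and Gbp3 at 6.43, 7.55 and 6.02 against 6.05, 6.19 and 6.44. In both genes wild type replicate 2 stood more than 1 log2 unit above the other wild type hearts, and the remaining 5 arrays overlapped. The differences were -0.25 for Gbp2 and -0.44 for Gbp3. Without wild type replicate 2 they were 0.10 and 0.00. The other probe set of Gbp2 was at -0.28. Mx1, a dynamin-like antiviral GTPase whose allele is defective in many laboratory strains, was at 2.37, 2.90 and 2.51 in wild type and 2.52, 2.28 and 2.53 in knockout hearts. The groups overlapped (difference -0.15), and its mean of 2.52 also lies below the 40th percentile. Mx2, its relative, had a difference of -0.05.

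Usp18, the protease that removes ISG15 from proteins and restrains IFNAR2, was at 6.16, 6.94 and 5.69 in wild type and 5.99, 6.06 and 5.81 in knockout hearts. The groups overlapped, and the difference of -0.31 (adjusted p = 0.760) was 0.03 without wild type replicate 2.

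Among the other effectors, Ifi27l2a had the largest difference of the 38 genes. It encodes a small hydrophobic interferon-induced protein. Its signal was 8.70, 9.64 and 8.37 in wild type and 9.80, 9.89 and 9.79 in knockout hearts. Every knockout heart lay above every wild type heart, and the knockout values spanned 0.10 against 1.27 in wild type. The difference was 0.93 (SE 0.26, 95% interval 0.35 to 1.50), or 1.90-fold on the linear scale, and it did not pass (adjusted p = 0.200). Wild type replicate 2 decides this call: without that array the difference was 1.29 with an adjusted p of 0.0096, and over the 16 alternatives the adjusted p ran from 0.0096 to 0.674. In the same hearts macrophage and monocyte markers had a median difference of 0.32, with 7 of 15 at an unadjusted p under 0.05 (11.5% of all genes) and 0 past the threshold. That median was 0.18 with 4 of 15 without wild type replicate 3, and 0.44 with 10 of 15 without wild type replicate 2. Without knockout replicate 3 it was 0.26 with 2 of 15. Fibroblast markers had a median difference of 0.33, with 4 of 10 at an unadjusted p under 0.05. Of these fibroblast markers 1 rose past the threshold, which 0.549% of all genes passed. Neutrophil markers had a median of 0.11, with 2 of 8 at an unadjusted p under 0.05 and 0 past the threshold. The part of any of these cells in the Ifi27l2a values was not tested. The gene has a close relative, Ifi27l2b, whose transcript can share probes.

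Ifitm3, a membrane protein that blocks viral fusion, had a smaller difference of the same sign. It was at 10.68, 11.17 and 10.66 in wild type and 11.11, 11.01 and 11.13 in knockout hearts, so that the knockout hearts lay above wild type replicates 1 and 3 and below replicate 2. The difference was 0.25 (SE 0.14, adjusted p = 0.598), and with single arrays left out it was lowest, 0.16, when wild type replicate 3 was omitted and highest, 0.42, when replicate 2 was. Isg20, an exonuclease that degrades RNA, was at 5.37, 5.66 and 5.20 against 5.56, 5.77 and 5.53, with overlapping groups and a difference of 0.21 (0.34 without wild type replicate 2 and 0.11 without replicate 3). These 3 genes, with Eif2ak2 (the double-stranded RNA-activated kinase PKR, 0.04), Rtp4 (0.09) and Xaf1 (0.09), were the 6 of 12 effectors with a value above 0. Rtp4, a chaperone of membrane receptors, was at 7.54, 8.49 and 7.50 in wild type and 7.88, 7.97 and 7.94 in knockout hearts. Xaf1, a pro-apoptotic factor, was at 7.49, 8.08 and 7.16 against 7.54, 7.71 and 7.74. In both genes the knockout hearts lay inside the wild type range.

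The other 6 effectors had values below 0. Rsad2 encodes viperin, an enzyme that makes a chain-terminating nucleotide, and was at 8.72, 9.03 and 8.45 in wild type and 8.35, 8.51 and 8.53 in knockout hearts (difference -0.27, adjusted p = 0.562). Its 2 other probe sets were at -0.31 and -0.47, the latter with an unadjusted p of 0.0352. Cmpk2, a mitochondrial nucleotide kinase encoded next to Rsad2, was at 5.63, 6.36 and 5.51 against 5.54, 5.29 and 5.57 (difference -0.37). Parp14, an ADP-ribosyltransferase, was at 6.78, 7.21 and 6.43 against 6.42, 6.46 and 6.69 (difference -0.28). For each of these 3 genes wild type replicate 2 was the highest array. Wild type replicate 1 also lay above every knockout heart, and wild type replicate 3 lay within the knockout range. Without wild type replicate 2 the differences were -0.12 for Rsad2, -0.10 for Cmpk2 and -0.08 for Parp14. Trim30a, a negative regulator of Toll-like receptor signalling, was at 6.67, 7.30 and 6.36 against 6.64, 6.72 and 6.92. Its knockout hearts lay inside the wild type range. Bst2 (tetherin, which holds budding virus at the membrane) was at -0.02, and Ifi35 at -0.07.

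Psmb8 and Psmb9 encode catalytic subunits of the immunoproteasome, and Tap1 a subunit of the peptide transporter that feeds MHC class I. Psmb9 was at 6.44, 7.03 and 6.28 in wild type and 6.04, 6.24 and 6.33 in knockout hearts, a difference of -0.38 (SE 0.18, 95% interval -0.78 to 0.02, adjusted p = 0.497) that was -0.16 without wild type replicate 2. Psmb8 was at 6.96, 7.40 and 6.80 against 6.81, 6.90 and 7.12, a difference of -0.11 that was 0.06 without the same array. Wild type replicate 2 was highest in both, and the groups overlapped. Tap1 had a mean of 1.75, among the lowest 4.43% of probe sets, and 2 such probe sets, so its level cannot be read here. The constitutive proteasome subunits had a median difference of 0.06 with 0 of 14 past the threshold.

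Upstream of these genes, the list of receptors and JAK-STAT components held 13 measured genes. Of these, 1 rose and 0 fell past the threshold (0.549% of all genes passed). An unadjusted p under 0.05 was seen in 4 of the 13 (11.5% of all genes). Socs3, the feedback inhibitor of cytokine receptors that use JAK kinases, was at 5.47, 4.89 and 5.20 in wild type and 6.25, 6.27 and 6.64 in knockout hearts. It rose by 1.20 (SE 0.16, adjusted p = 0.0153), with no overlap between the groups. The adjusted p was 0.0553 when wild type replicate 3 was left out, 0.0794 without knockout replicate 2 and 0.0639 without knockout replicate 3. In the same arrays, of 11 heat shock genes listed as signs of stress or handling, 2 rose past the threshold (0.549% of all genes passed). Of the 11, 6 had an unadjusted p under 0.05 (11.5% of all genes). Hspa1b rose by 2.33 (adjusted p = 0.00579) and Hspa1a by 2.20 (adjusted p = 0.0429), and their part in the Socs3 values was not tested. The interferon gamma receptor chain Ifngr2 (-0.57), the kinase gene Jak1 (-0.30) and Pias1 (-0.26) had unadjusted p-values under 0.05 and did not pass. With the probe sets of each gene averaged they were at -0.36, 0.00 and -0.15, so the lower values belong to the probe set with the highest signal. Ifngr2 was at -0.39 without wild type replicate 2. Of the 13 measured sensing adaptors and kinases 0 passed by limma and 1 had an unadjusted p under 0.05, against 11.5% of all genes. This was Trim25, a ubiquitin ligase of the RIG-I pathway (-0.28, adjusted p = 0.433, and -0.17 without knockout replicate 1). Its groups did not overlap, as in 2 of the 13 genes (16.7% of all genes). Mavs, the adaptor of the RNA sensors, was at -0.32, and at -0.16 without knockout replicate 2. Ikbke was at 0.25 (0.10 to 0.39 with single arrays left out) and Sting1 at 0.14.

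Of the 38 other interferon-induced genes measured, 0 passed by limma and 7 had an unadjusted p under 0.05, 6 of them lower, where 11.5% of all genes had one. That count ran from 3 (without knockout replicate 2) to 12 (without wild type replicate 3). The median difference of the list was -0.09, and it was -0.01 with wild type replicate 2 left out and -0.17 with replicate 3 left out. The 4 with the smallest unadjusted p were Gbp6 (-0.95, adjusted p = 0.0641) and the immunity-related GTPase genes Irgm2 (-0.78) and Igtp (-0.79), followed by Nlrc5 (-0.72), the activator of MHC class I genes. For Irgm2, Igtp and Nlrc5 wild type replicate 2 was the highest array and the groups overlapped. With that array left out they were at -0.53, -0.51 and -0.37. Gbp6 was at 8.90, 8.76 and 8.37 in wild type and 7.60, 7.48 and 8.08 in knockout hearts, with no overlap. It passed with a robust prior (limma adjusted p = 0.0442), with a further quantile normalization (0.0492) and without knockout replicate 3 (0.0477). Under every other alternative it did not pass, for example with its probe sets averaged (-0.91, adjusted p = 0.095).

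MHC class II genes, which interferon gamma induces through CIITA and which macrophages, dendritic cells and B cells express, had a median difference of -0.73. By limma 0 of 6 passed and 5 had an unadjusted p under 0.05, all lower (11.5% of all genes had one). H2-Aa was at 10.44, 9.73 and 9.59 in wild type and 9.09, 8.72 and 9.49 in knockout hearts, and H2-Ab1 at 9.29, 8.47 and 8.47 against 7.95, 7.49 and 8.28. H2-Eb1 and Cd74 were at -0.74 and -0.72, and Ciita at -0.14. The knockout hearts lay below the wild type hearts in 3 of the 6 genes (the groups did not overlap in 16.7% of all genes). Here wild type replicate 1, not replicate 2, was the highest array, so the MHC class II genes did not share the pattern of the 38 interferon genes between wild type hearts. Without wild type replicate 1 the median was -0.43, and without knockout replicate 2 it was -0.54, each with 2 of 6 at an unadjusted p under 0.05. Dendritic cell markers had a median difference of -0.05, B cell markers -0.08 and T and NK cell markers -0.07, with 0 called in each list. Their mean signals ran from 2.62 to 9.41, 3.22 to 5.93 and 2.08 to 5.4, in the same order. Several markers in each list were thus near the floor, where differences are compressed. These medians therefore cannot show that those cells were unchanged. Macrophage markers were at 0.32. The part of any of these cell types in the MHC class II values was not tested. Of the MHC class I and peptide loading genes, 0 of 9 passed, with H2-K1 at -0.30 and the proteasome activator gene Psme1 at -0.52 (adjusted p = 0.127).

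**Figure D5:**
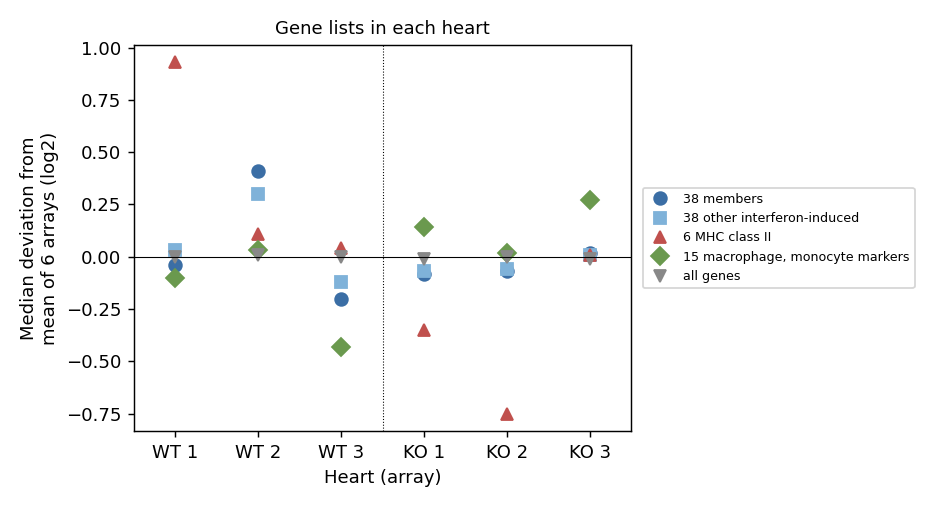
Median deviation (log2) of each gene list from its genes' means over the 6 arrays, by heart. The 38 interferon genes and the 38 other interferon-induced genes peak in wild type replicate 2 (0.41 and 0.30), the MHC class II genes in wild type replicate 1 (0.93), and the macrophage and monocyte markers are lowest in wild type replicate 3 (-0.43).

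Wild type replicate 2 was the highest array for most genes both with and without a motif match. Among 10 measured genes with an ISRE core in the 250 bases, the median difference between wild type replicates 2 and 3 was 0.76, and 8 had replicate 2 as the highest array. Among 20 measured genes in the promoter table without one, the median was 0.60, and 15 had replicate 2 as the highest array. Oas3 and Irf2 held an ISRE core and differed by -0.30 and 0.29 between those hearts. The knockout minus wild type median was -0.05 in both groups of genes. For the GAS core the medians between the same hearts were 0.50 with a match (8 genes) and 0.68 without (22 genes). No match says only that these letters are not in the window.

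Of the 38 genes, 35 had a mean above the 40th percentile of all probe sets, and Oas3, Mx1 and Tap1 did not. The 23 other probe sets of these genes gave 0 calls by limma, with 2 at an unadjusted p under 0.05. For 5 genes the probe set used carries a suffix that marks probes shared with other transcripts (Irf2, Ifi35, Irf3, Gbp2 and Tap1), so their values are less specific.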

How the data were processed

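RNA from the hearts of 6 mice was measured on Affymetrix arrays, 1 array per mouse. The authors deposited 1 log2 value for each probe set and array. Per the submitters' processing notes, RMA and limma were used; the sources used here give no version. The RMA method subtracts background, forces the arrays to 1 distribution and pools probes, so an overall shift between groups is removed and dim differences are compressed. Scan dates and detection calls were not analysed here.

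Of 38208 rows, 13 control probe sets were left out. The supplied platform annotation gave 34325 of the other 38195 a single gene symbol, 62 several and 3808 none. Each of 18029 genes was represented by its probe set with the highest mean over the 6 arrays. The genotypes were compared by limma 3.58.1 in R 4.3.3 (lmFit, eBayes, two-sided), with Benjamini-Hochberg adjustment over all 38195 probe sets at a threshold of 0.05. Intervals are 95% intervals of that fit. Unless an alternative or a left-out array is named, every adjusted p comes from this limma fit, with n = 3 mice in each group. Fits with arrays left out have fewer mice. The code was tested on simulated data.

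Per-array values were given for members past the threshold, the 12 with the smallest unadjusted p, the 12 with the largest range over the arrays, the 2 of each role with the highest mean signal and those whose groups do not overlap. Irf7, Irf9, Xaf1 and Trim30a were added after their values were seen. Of each other list, up to 4 genes with the smallest unadjusted p were named, and for MHC class II more, chosen after their values were seen. The members and lists were chosen with earlier results of these data known. Promoter sequences came from RefSeq (GRCm38.p6), for the 250 bases before each start. The motifs were chosen after the values were seen, as were the promoters to print and the pair of wild type hearts compared with each other. The alternatives were a replicate block, trended and robust priors, array weights, further normalization, a filter at the 40th percentile, 1 probe set or the mean of all probe sets per gene, and left-out arrays.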

Additional observations from a re-analysis of the deposited data

How the results depend on the processing

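Of the 605 fits of single interferon genes under the 16 alternatives, 1 passed the threshold, that of Ifi27l2a without wild type replicate 2. The sign of the difference was kept in every alternative by 11 of the 38 genes, and signs that turned belonged to differences past the threshold in neither fit. The count of interferon genes past the threshold was 0 to 1 with single arrays left out and 0 under every other alternative run. Their median difference, -0.06, ran from -0.21 to 0.05 with single arrays left out, stayed between -0.07 and -0.02 in the other fits with all 6 arrays, and was -0.17 without wild type replicate 3 and knockout replicate 1 together. All of these lie within 0.23 of the main value, the SD of the per-array medians pooled within genotypes. Wild type replicate 2, with a median deviation of 0.41, widens that SD, so it is a lenient measure for fits that leave this array out. The number of probe sets past the threshold over the whole array, 161, was 38 to 86 with single arrays left out, 29 without those 2 arrays, 102 with 1 probe set per gene and 84 with each gene's probe sets averaged, the last 2 testing fewer features. Tmbim1 (adjusted p = 0.0607) and Socs3 (0.119) were not past it without those 2 arrays.

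With the replicate number as a block, 168 probe sets and 0 interferon genes passed. Deviations of same-numbered arrays correlated at 0.0603, 0.138 and 0.0155 across probe sets. Arrays of different number correlated at -0.1435 to 0.0753, the highest for wild type replicate 3 with knockout replicate 1. With 3 arrays centred in each group, these values cannot decide whether equal numbers pair the mice. The labels do not say that they do, so the main fit held no block. The block changed no call among the genes named, apart from Hspa1a and Hspa1b, which were not checked under it.

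With 3 hearts per group, and wild type hearts that differ by over 1 log2 unit in some of these genes, differences inside the intervals given are not resolved. Signals near the floor (Oas3, Mx1, Tap1) limit those genes further.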
